A study of Homo sapiens with 2 samples.

Results

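The peaks described here lie in the flanks of the centromere of human chromosome 10, the 2 Mb on either side of its cytogenetic centromere band (hg38). Members were the rows of the deposited peak list on chromosome 10 whose summit lay from 36.0 to under 38.0 Mb, on the short-arm side, or from over 41.6 to 43.6 Mb, on the long-arm side. This position rule, which used no measured value, took 281 of the 24258 peaks in the list (1.16%). The list came from HCT116, an established colon cancer cell line, and compared 1 library immunoprecipitated with an antibody to TRF2 with 1 input library made without antibody. Both libraries carry the same culture conditions in their labels, with no treatment named: cells were fixed with 1% formaldehyde 72 h after plating and sonicated to fragments of 300 to 400 bp, and 5 μg of antibody was used per 100 μg of chromatin. The name of the peak list mentions a control siRNA and the labels mention no transfection, so the cells are described as labelled. Each group had 1 library, which leaves samples without a test of their difference, and the intervals below (95%) cover counting error only. They count each peak as independent, so they are too narrow where peaks are closely spaced. A peak list holds no expression values, so the cell line label could not be checked against marker genes.

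TRF2 is a subunit of shelterin, the protein complex that coats telomeres, and its Myb-like domain binds the double-stranded telomere repeat. It has also been reported away from chromosome ends, at interstitial telomere repeats and at satellite repeats beside centromeres. The DNA next to human centromeres is rich in tandem satellite arrays and segmental duplications and poor in active genes, and such repeats are compacted as constitutive heterochromatin. Copies of a satellite are alike, so short reads from one copy can align equally well to another, and an assembly may hold fewer copies than a genome does. How the authors placed reads that align equally well to several positions is not known here, and the sequence under the peaks was not analysed here.

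Nearly all members were on the long-arm side. The long-arm flank held 276 of the 281 peaks (98.2%) and the short-arm flank held 5. These counts correspond to 138 peaks per Mb on the long arm (exact Poisson interval 122 to 155) and 2.50 per Mb on the short arm (0.812 to 5.83), a ratio of 55.2 (exact interval 23.4 to 171). With summits within 1 kb joined, 38 stretches on the long arm and 5 on the short arm gave a ratio of 7.60 (2.99 to 24.7).

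The centromere band between the flanks held 501 peaks at 139 per Mb (127 to 152), and the ratio of the long-arm flank to it was 0.992 (0.853 to 1.15). The band was uneven, with 171 per Mb in its part next to the long-arm flank and 107 in its short-arm part. Other measures than the count of summits set the flank and the band apart. With summits within 1 kb joined the band had 352 stretches and the density ratio was 0.194 (0.135 to 0.272), while peaks covered 4.06% of the long-arm flank and 1.55% of the band. Chromosome 10 beyond both flanks carried 210 peaks, 1.66 per Mb (1.45 to 1.91). The short-arm flank was 1.50 times that density, with an interval of 0.483 to 3.56 that holds equality, so no excess was detectable there at this depth.

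Within the long-arm flank the peaks were confined to its part nearest the centromere. Of 20 bins of 100 kb, 7 held a summit, and the bin from 41800001 to 41900000 alone held 115 peaks, 40.9% of all members. The last member ended at 42321545, and no peak was listed in the remaining 1.28 Mb of the flank. The next peak on the chromosome started at 44764266, 2.44 Mb further out. On the centromere side, 135 kb without a peak separated the last peak of the centromere band, which ended at 41583350, from the first long-arm member at 41718232.

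**Figure D1:**
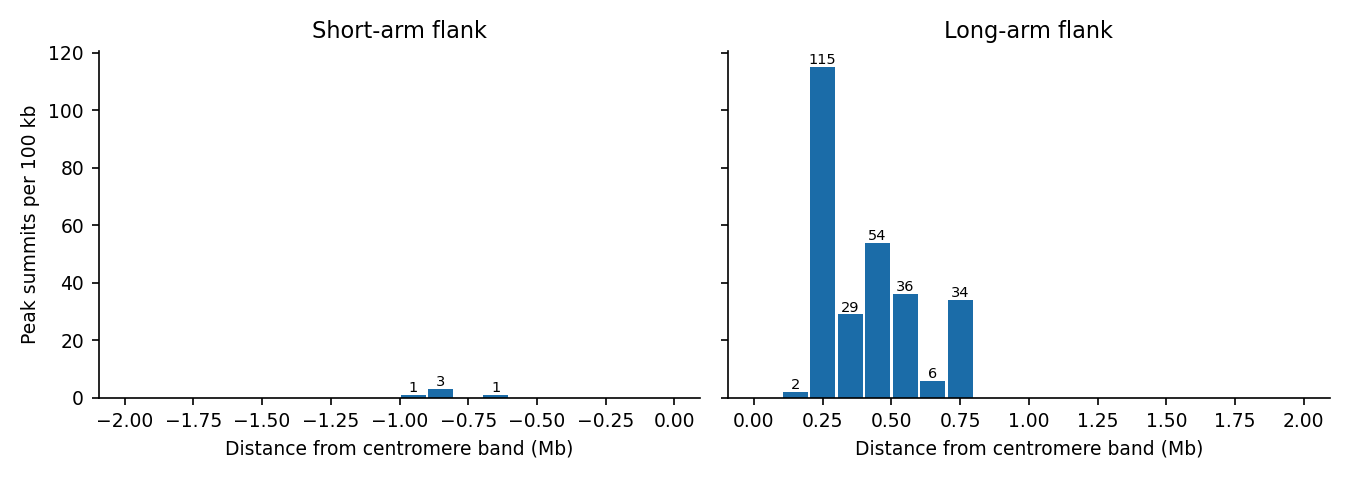
Number of peak summits per 100 kb bin (y axis) against distance from the edge of the centromere band in Mb (x axis), for the short-arm flank (left, negative distances) and the long-arm flank (right). Numbers over the bars are the counts; 3 short-arm bins hold 5 summits, and the 7 filled long-arm bins all lie within the inner part of that flank, led by one with 115.

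Summits on the long arm formed 4 dense clusters when neighbours up to 5 kb apart were joined and at least 10 summits were required. The first ran from 41831881 to 41916276 and held 144 peaks. The second ran from 42066302 to 42105027 with 66 peaks, the third from 42153632 to 42173558 with 23, and the fourth from 42295321 to 42321545 with 40. Together they held 273 members (97.2%), and the 3 other long-arm peaks stood alone.

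The clusters were crowded, and stretches without any listed peak lay between them. Median distance between neighbouring summits was 447 bp in the first cluster, 509 bp in the second, 627 bp in the third and 618 bp in the fourth, and 88.5% of all neighbouring pairs within clusters were under 1 kb apart. The smallest spacing was 165 bp. Peak intervals covered 57.8% of the length of the first cluster and 60.9% of the second, but only 15.9% of the third and 20.5% of the fourth. Between the first and the second cluster 150025 bp held no peak, and between the third and the fourth 122 kb held none. Whether the assembly holds known bases in these stretches was not analysed here.

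The clusters differed in depth far more than in fold. Fold is the authors' ratio of immunoprecipitated reads at the summit to the local input background, each with 1 read added. That background is the peak caller's estimate, and whether it equals the input reads at the summit itself was not tested. The whole number of immunoprecipitated reads at the summit, called the pileup here, and the input background, in reads on the scale of the immunoprecipitated library, were recovered from the deposited fold and p-value. Median fold was 5.31 in the first cluster, 3.86 in the second, 4.39 in the third and 5.31 in the fourth. Median pileup was 57 reads in the first cluster and 65.5 in the second, against 9 in the third and 12 in the fourth.

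The input followed the same division. Its median background was 7.72 in the first cluster and 15.2 in the second, or 7.36 and 14.5 times 1.05, the smallest value in the whole list. In the third and the fourth cluster the median background was 1.05, that minimum itself, at which 15 of 23 and 21 of 40 peaks lay. Over all members 45 lay at the minimum (16.0%), where 29.5% of the whole list did. Folds of these peaks rest on that shared value, and whether the input there was lower was not tested. The first and the fourth cluster had the same median fold at a pileup of 57 over a background of 7.72 in one and 12 over 1.05 in the other. Over the 210 peaks of the first and the second cluster the median fold was 5.04, and over the 63 peaks of the third and the fourth it was 4.88. Input depth differed between the clusters together with the pileup, and its part in the peak counts was not tested.

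**Figure D2:**
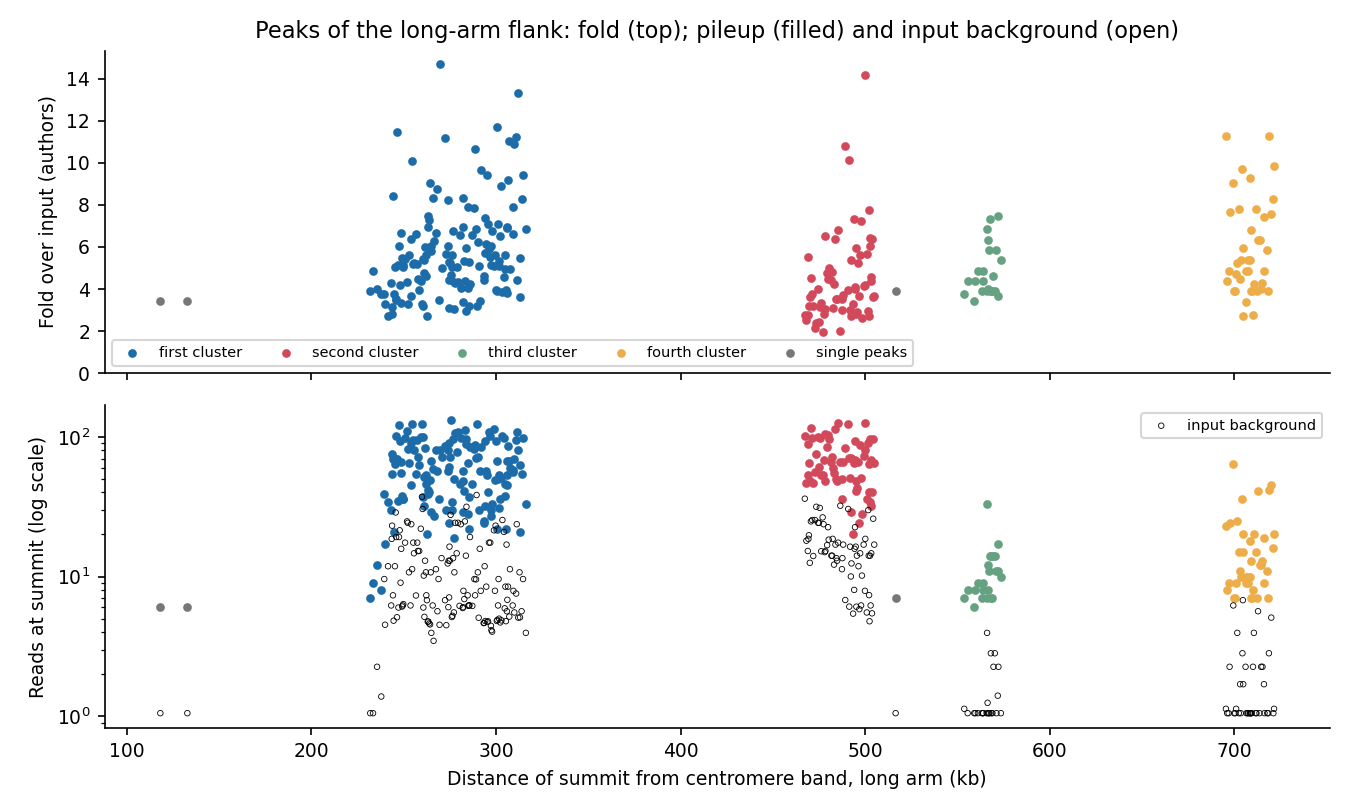
Each peak of the long-arm flank by the distance of its summit from the centromere band in kb (x axis). The upper panel shows the authors' fold over input on a linear axis and the lower panel the pileup (filled) and the input background (open circles) in reads on a log axis; colours mark the 4 clusters and grey the 3 single peaks. Ranges of fold and pileup overlap between clusters. Those of background do too, except between the second cluster (4.78 to 36.1) and the third (1.05 to 3.95). The medians of pileup and background, unlike those of fold, are higher in the first and the second cluster than in the third and the fourth.

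The change in depth at the inner edge of the first cluster took place over a short distance. In the window from 41830001 to 41840000 its 6 peaks had a median background of 1.82 and a median pileup of 10.5. In the next 10 kb, 18 peaks had a median background of 10.4 and a median pileup of 59.5, and from 41850001 to 41860000 the 15 peaks reached 17.5 and 90. At the other end, the last 8 peaks of this cluster (41910001 to 41920000) had the highest median fold of its 10 kb windows, 7.58, over a background of 6.60. The second cluster had its highest median background from 42070001 to 42080000, at 24.0 with a median fold of 3.27. Its median fold was 4.49 from 42100001 to 42110000, over a background of 14.1.

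Strong peaks, those with a −log10 q of at least 5, made up 213 of the 281 members (75.8%, exact binomial interval 70.4% to 80.7%). The share was 30.0% over the whole list and 49.3% over the pooled flanks of the other chromosomes. The first cluster held 131 of the 213 (91.0% of its peaks) and the second 57 (86.4%). In the fourth cluster 19 of 40 peaks were strong (47.5%, 31.5% to 63.9%) and in the third 6 of 23 (26.1%, 10.2% to 48.4%). No short-arm peak and none of the 3 single long-arm peaks was strong. A −log10 q rises with depth at a given fold. The first and the second cluster, with the largest shares, also had the highest median pileups, in the reverse order. By a fold of at least 5, 136 members passed (48.4%), where the list as a whole had 25.2% and the pooled other flanks 40.8%. Among other flanks with at least 50 peaks, this share ran from 7.89% on chromosome 14 to 62.7% on Y. Chromosomes 20 (60.7%) and 17 (49.1%) were also above chromosome 10. By a fold of at least 5 the fourth cluster, with 21 of 40 (52.5%), stood nearer to the first, with 89 of 144 (61.8%), than to the second, with 19 of 66 (28.8%).

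The highest folds came from single positions inside the clusters. The member of highest fold, from 41869268 to 41870256 in the first cluster, had a fold of 14.7, with 80 reads over a background of 4.51 and a −log10 q of 64.1. The second by fold, from 42099647 to 42099940 in the second cluster, had 125 reads over 7.90, a fold of 14.2 and a −log10 q of 95.7. It ranked 12th of 24258 by p-value, the best rank of any member. Folds of 13.3, 11.7 and 11.5 followed in the first cluster, at peaks starting at 41911500, 41900296 and 41846337, each with 67 to 80 reads over a background of 4.81 to 5.11.

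The fourth cluster entered the 10 highest folds with far fewer reads. Its peak from 42295321 to 42295412 had a fold of 11.3 from 23 reads over 1.13, and the one from 42318596 to 42318693 had 11.3 from 42 reads over 2.82. The remaining 3 of the 10 were in the first cluster and started at 41910616, 41871480 and 41907167, with folds of 11.2, 11.2 and 11.0. The third cluster did not reach this set. Its peak of highest fold, from 42171777 to 42171852, had a fold of 7.50 from 17 reads. In all, 15 members had a fold of 10 or more.

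Members took a larger share of the deepest peaks than of the list as a whole. They made up 1.16% of all peaks but 9 of the 100 and 98 of the 1000 peaks of lowest p-value. Of those 98, 94 were in the first and the second cluster and 4 in the fourth. At least 100 reads were reached by 26 members, out of 412 such peaks in the list (6.31%), and a background of at least 10 was found at 111 members, out of 1622 (6.84%). Peaks of 1 kb or wider numbered 9 among the members, of 85 in the list (10.6%), where 0.35% of all peaks were that wide. Members covered 81.7 kb, 2.31% of the length under all peaks.

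Inside the first and the second cluster, fold was lower at the summits of deepest input, although the pileup was higher. Spearman's rho between fold and background was -0.40 in the first cluster and -0.48 in the second. Between pileup and background it was 0.80 in the first and 0.59 in the second. Across the 281 members the rho of fold and background was -0.30 and that of pileup and background 0.87. Over the whole list these were -0.09 and 0.84. In the centromere band of chromosome 10 the rho of fold and background was -0.44. All are descriptions, since fold is computed from both values and the peaks share 2 libraries. Within the first cluster, the 57 peaks with a background of 5 to 10 had a median fold of 6.56 at 48 reads in the median. The 21 peaks there with a background of 20 or more had medians of 4.05 in fold and 101 reads in pileup. In the second cluster the same groups had 6.79 and 46 (12 peaks) and 3.05 and 94.5 (16 peaks).

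These folds can be set beside the range of the pileup. The largest pileup was 132 among the members and 138 anywhere in the list. With 138 reads, a background such as the highest among members, 38.4 at the peak from 41889353 to 41889736, would give a fold of 3.53, and that peak had 124 reads and a fold of 3.18. The second highest background, 37.2 from 41859705 to 41860168, came with 124 reads too and a fold of 3.27. Whether 138 reads is a limit was not tested, and folds at such summits are not read here as an order of enrichment against the shallower clusters. The peak at the inner edge of the second cluster, from 42066302 to 42067721, was 1 of the 3 widest members (1420 bp) and had the third highest background, 36.1, with 102 reads and a fold of 2.78.

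**Figure D3:**
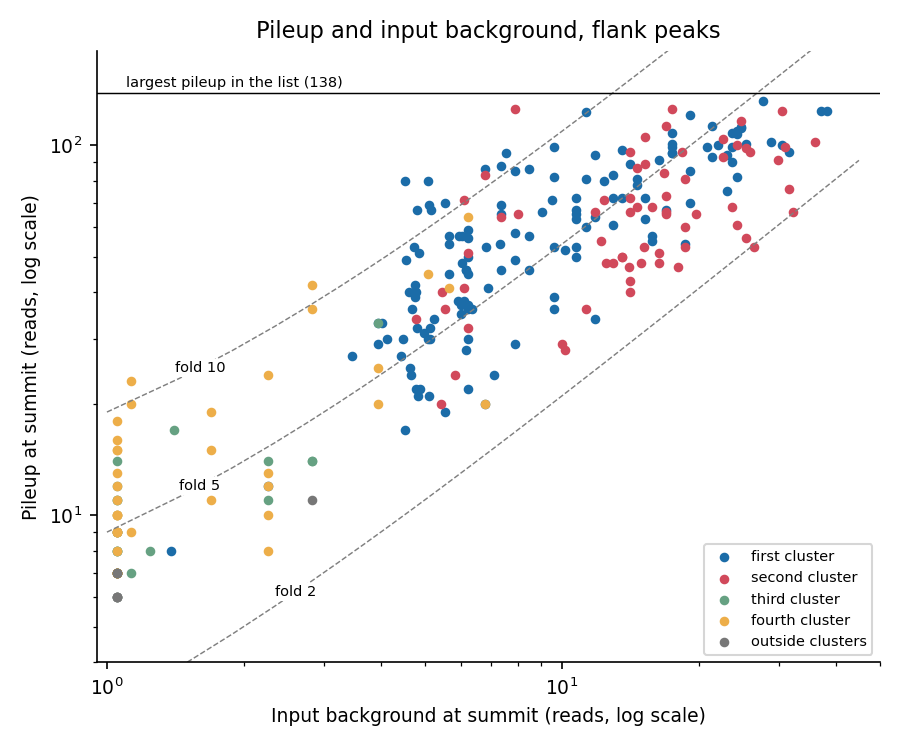
Pileup at the summit (y axis) against the peak caller's input background (x axis) for each of the 281 members, in reads on log axes, coloured by cluster. Dashed lines mark folds of 2, 5 and 10, and the solid line the largest pileup in the list, 138; peaks of the first and the second cluster lie at the upper right, approaching that line, and most of the third and the fourth at the lower left.

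The 5 short-arm peaks were scattered and shallow. They lay from 37089545 to 37322752 and had folds of 3.14 to 3.90, pileups of 6 to 11 reads and widths of 69 to 152 bp. Their −log10 q ran from 0.811 to 1.53, and 2 of the 5 had a q-value under 0.05, as had 274 of all 281 members (97.5%) and 79.3% of the whole list. The 2 of highest fold, 3.90 with 7 reads each, started at 37176840 and 37178079. Background was at the minimum of 1.05 for 4 of them, and 2.82 for the peak from 37322601 to 37322752. The 3 single long-arm peaks were alike in size, with folds of 3.41, 3.41 and 3.90 and pileups of 6, 6 and 7.

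Since the position rule has bounds, the peaks next to them are given here. On the short arm the member nearest the 36.0 Mb bound lay 1090 kb inside it (fold 3.41) and the nearest peak outside 2651 kb away (fold 4.39). At 38.0 Mb the nearest member was 677 kb inside (fold 3.14) and the nearest centromeric peak 141 kb outside (fold 4.39). At 41.6 Mb these were 118 kb inside (fold 3.41) and 16.7 kb outside (fold 3.93), and at 43.6 Mb 1279 kb inside (fold 9.87) and 1164 kb outside (fold 4.88). No cluster was divided by a bound.

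Few members lay in genes. The gene table held 82 genes that reach into the flanks, 12 of them protein-coding, and 2 (2.44%) had a summit inside or within 3 kb, where the share over all genes was 3.09%. One was ANKRD30A, a protein-coding gene known as the breast differentiation antigen NY-BR-1, which spans 37125598 to 37265894. It held 3 summits, with folds of 3.41, 3.90 and 3.90 and 6, 7 and 7 reads, none of them strong. The other was LINC00993, a long non-coding RNA gene from 37309186 to 37347029, with 1 summit of fold 3.14. ANKRD30A was thus 1 of 12 protein-coding genes (8.33%), where 4.74% of all protein-coding genes had such a summit.

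All 4 clusters lay outside annotated genes. None of the 276 long-arm summits was in a gene (exact binomial upper limit 1.33%), whereas 9.65% of all summits on primary chromosomes were. That limit counts summits as independent, although 273 of them lay in the 4 clusters, so it is too low. The third cluster started 3.90 kb beyond KSR1P1, a pseudogene from 42149319 to 42149731. The fourth lay between 2 pseudogenes, 14.1 kb beyond PABPC1P8 and 10.3 kb before LOC441666. To the left of the first cluster the nearest annotated gene ended 3113 kb away, inside the centromere band (CHEK2P5, a pseudogene ending at 38719382).

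The 9 protein-coding genes of the long-arm flank had no summit within 10 kb. The closest was ZNF33B, a zinc finger gene, 253 kb from the nearest summit, followed by BMS1, which encodes a GTPase of ribosome assembly, at 461 kb. RET, the receptor tyrosine kinase for ligands of the GDNF family, was 756 kb away, and CSGALNACT2, an enzyme of chondroitin sulfate synthesis, 817 kb. RASGEF1A, a guanine nucleotide exchange factor, lay at 873 kb, FXYD4, a regulator of the sodium pump, at 1050 kb and HNRNPF, an RNA-binding protein of splicing, at 1064 kb. The zinc finger genes ZNF487 and ZNF239 were 1115 kb and 1190 kb away. On the short arm the zinc finger genes ZNF248 and ZNF25 were 283 kb and 164 kb from the nearest summit. The only miRNA gene of the flanks, MIR5100, was 676 kb from one.

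Promoter sequence from RefSeq (GRCh38.p14), 250 bases before to 50 after the start, was at hand for 43 of the 82 genes, and no peak overlapped any of these windows. The telomere repeat unit TTAGGG, on either strand, was in 0 of the 43 windows and in 9.05% of all 35116 windows of that length. The pentamer GGAAT, the unit of a pericentromeric satellite family, was on either strand in 11 of 43 (25.6%) and in 36.4% of all. These are letter matches away from the peaks and bear on no factor.

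Set beside the flanks of the other chromosomes, those of chromosome 10 were among the densest and had the highest median depth. Heterochromatin and stalk bands were left out of the other flanks, which left no flank on chromosome 19. The others held 1423 peaks over 70.0 Mb, 20.3 per Mb (19.3 to 21.4), and chromosome 10, with 70.3 per Mb (62.3 to 79.0), had 3.46 times that density (exact interval 3.03 to 3.93). This was the third highest density, below chromosomes 16 (101 per Mb) and Y (94.5 per Mb). The excess was one of closely spaced summits. With summits within 1 kb joined, chromosome 10 had 43 stretches and the others 803, a ratio of 0.937 (0.673 to 1.27), with 6.53 summits per stretch against 1.77. Covered length pointed the other way, with 2.04% of the flank under peaks against 0.299%, a ratio of 6.84. Without the densest 100 kb bin the density ratio was 2.09.

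The depth set chromosome 10 further apart than the fold did. Its median background of 6.77 and median pileup of 48 were the highest of the 8 chromosomes with at least 50 flank peaks, where the other 7 ran from 1.05 to 4.20 in background and from 7 to 27 in pileup. Single peaks were deeper elsewhere, with a largest pileup of 138 on chromosome 16 and 134 on Y, and a largest background of 68.3 on 16, 63.2 on Y and 43.4 on 17. Its median fold of 4.88 was the fourth highest of these 8, in a range of 3.90 to 5.85 for the others. Chromosome 20, with 168 flank peaks, had a higher median fold of 5.60 at a pileup of 18.5 over 1.97. Chromosome 2, with 153, was the nearest in background (4.20) and had a median fold of 4.39. The share of strong peaks was 75.8% on chromosome 10, 78.3% on Y, 64.9% on 20, 60.5% on 17 and 55.6% on 2. It was 40.8% on 16, 23.8% on 7 and 2.63% on 14.

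**Figure D4:**
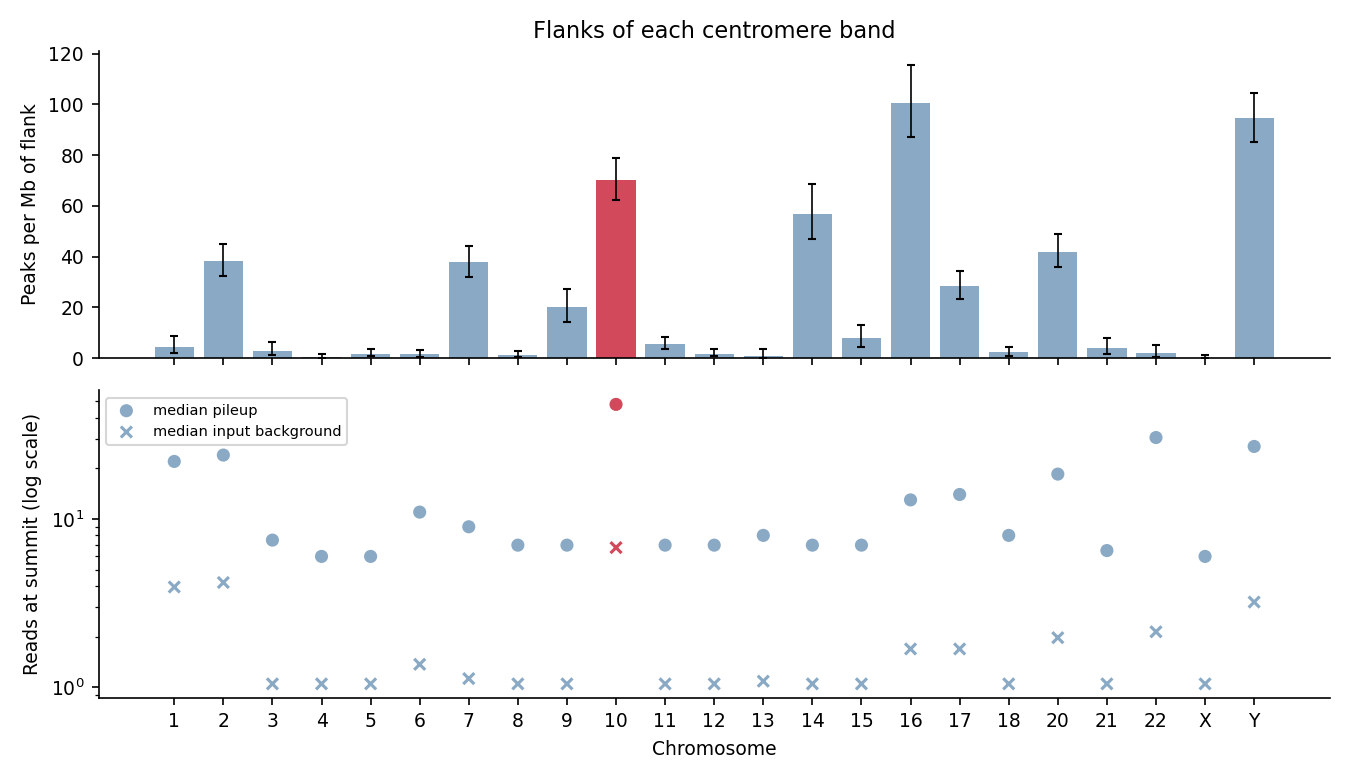
Flanks of the centromere band of each chromosome, chromosome 10 in red. The upper panel shows peaks per Mb with exact Poisson intervals as error bars, and the lower panel the median pileup (circles) and the median input background (crosses) in reads on a log axis; chromosome 10 has the third highest density and is highest in both medians, which on chromosomes with few peaks rest on as few as 1 peak.

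The neighbouring centromere band of chromosome 10 differed in the same measures. Its 501 peaks had a median pileup of 12 reads over a background of 2.26, a median fold of 3.99 and 29.5% strong peaks (exact interval 25.6% to 33.7%). The short-arm part of the band was closer to the long-arm flank in fold (median 4.97, against 4.92) than the adjoining long-arm part (3.66), and both parts were shallower, with median pileups of 11 and 12 against 49. Median width was 90 bp in the band and 202 bp in the long-arm flank.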

How the data were processed

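The data were the peak list of 1 TRF2 immunoprecipitation over 1 input. Builds GRCh38 and hg38 and the tools MACS2 2.1.0, Bowtie2 2.3.2, ChIPseeker 1.36.0 and HOMER are listed in the submitters' processing notes, with no settings. The deposited fold is a ratio at the summit, the deposited −log10 p and −log10 q are the authors' peak caller's, and the deposited score is the whole part of 10 times −log10 p. These values describe and rank peaks within the list.

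Pileup and background were recovered from MACS2's forms, (pileup + 1)/(background + 1) for the fold and an upper Poisson tail for p. A whole pileup matched in 100% of peaks (tolerance 0.001 on −log10 p); tested on simulated data, 100% of 3898 pileups were recovered. Total reads per library were not used here. Bands came from circlize 0.4.16 (R 4.3.3) and genes from RefSeq GRCh38.p14 (58957 of 59792 rows used, those of other sequences being left out). Positions are 1-based. Intervals are exact Poisson or binomial. Scripts ran in Python 3.11.15 with scipy 1.17.1, numpy 2.4.6, matplotlib 3.10.9 and pandas 2.3.3.

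Named items were the 10 long-arm and 5 short-arm peaks of highest fold, the peak of highest fold in each cluster, flank genes with a summit, and 12 flank genes looked up whatever their values. Peaks named for their background, width or p-value, the minimum of 10 summits for a cluster and the 10 kb windows were chosen after values were seen. Members and lists were chosen with earlier results of these data known. Alternatives covered thresholds, flank width, joining of summits, bins, gaps and gene windows. No genome sequence was used, so the planned counts of motifs in peaks were not made.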

Additional observations from a re-analysis of the deposited data

How the results depend on the processing

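With 281 peaks as the reference, 136 had a fold of at least 5, 166 were left without the densest 100 kb bin and 43 stretches were left with summits within 1 kb joined. The density ratio to the other flanks, 3.46, was 5.32 with −log10 q of at least 5, 3.93 with q under 0.05, 4.10 with fold of at least 5, 4.57 with flanks of 1 Mb, 2.09 without that bin and 0.937 with summits joined, so only joining removed it. Joining, added for these after the data were seen, took the ratio of long arm to short arm from 55.2 to 7.60 and that of the long-arm flank to the centromere band from 0.992 to 0.194. Median fold moved from 4.88 to 5.43, median pileup from 48 to 60 and median background from 6.77 to 9.59 with strong peaks only, and to 4.46, 40 and 5.58 without the densest bin. With peaks above the minimum background, median pileup was 55 and background 8.75. A −log10 q of at least 10 was reached by 62.6% of members and a fold of 5 by 48.4%, against 75.8% strong. The densest bin held 32.4% of members at 50 kb, 51.2% at 200 kb and 48.8% of strong members at 100 kb. Gaps of up to 1 kb gave 10 clusters in place of 4. With strong peaks only, 0 flank genes had a summit in place of 2. The other alternatives stayed within 1.5 times the count or within the interval. Peaks of 6 or 7 reads are near the smallest pileup in the list (5), so weaker signal in the flanks was not detectable at this depth. No paired analysis was possible because each group had 1 library, and no library could be left out.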
